A study of Homo sapiens with 6 samples.

Results

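Most genes for SR proteins, hnRNPs and core spliceosome proteins differed little between RBE cells carrying a KCNQ3 guide and NC cells. The 14 that passed the test, 21.2% of the 66 tested against 29.1% of all tested genes, did so in both directions. The largest change among these 14 was in the SR protein gene SRSF7, which fell by 0.35 on the log2 scale. The genes were taken by symbol, as those starting with SRSF, HNRNP, SF3A, SF3B, U2AF, SNRNP or SNRP followed by a letter, which gave 69 of the 16200 genes in the table. They were sorted into 5 classes by known function: 12 SR proteins, 25 hnRNPs, 13 genes of SF3A, SF3B and U2AF, 8 genes of the Sm core and 11 other snRNP proteins.

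RBE is an established human intrahepatic cholangiocarcinoma line. The sgKCNQ3 group held 3 libraries of RBE cells with a single guide RNA against KCNQ3, a voltage-gated potassium channel subunit, and the NC group held 3 libraries of RBE cells with the label NC, which is not spelled out. The labels name no other treatment, and they leave unsaid by which CRISPR effector the guide acted, whether the cells were a clone or a pool, or whether the libraries of a group came from separate cultures. Poly(A)-enriched RNA was sequenced, so the values below are RNA levels and not protein. In such bulk samples, fewer cells expressing a gene and less of its RNA per cell cannot be told apart.

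Introns are removed by the spliceosome, which is built from small nuclear ribonucleoproteins (snRNPs): each holds a small nuclear RNA, a ring of Sm proteins and proteins of its own. U2AF and the SF3A and SF3B complexes recognise the 3' end of the intron and its branch point. SR proteins bind exons and mostly promote their use, and many hnRNPs bind nascent RNA and often oppose them. Many SR and hnRNP genes limit their own expression by splicing in a poison exon or a 3' UTR intron that sends the transcript to nonsense-mediated decay, and gene-level counts cannot tell such transcripts from the coding ones. In the GENCODE 29 annotation, 40 of the 66 tested members and 5397 of all 12565 tested genes had at least 1 transcript of the decay biotype. Among the members these were all 11 tested SR genes but 2 of 8 Sm core genes.

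Total estimated counts ran from 15685137 to 15722455 in sgKCNQ3 libraries and from 15601283 to 16089500 in NC libraries, and no pair of libraries agreed within sampling noise. KCNQ3 itself had 222, 206 and 191 counts in sgKCNQ3 libraries, against 256, 257 and 252 in NC libraries (log2 fold change -0.33, SE 0.0841, adjusted p = 0.00446). The groups did not overlap. On log2(TPM + 1), where the added 1 shrinks differences, the KCNQ3 estimate was -0.15 and limma-trend did not call it (adjusted p = 0.151). With the length trend described below removed, edgeR gave -0.48 (adjusted p = 0.000163). Of the alternative fits, 17 kept the KCNQ3 call and its direction, and the 1 that lost it was limma-trend on log2(TPM + 1). All 10 biliary epithelial markers were above 1 TPM in every library, with summed levels of 4888 to 4996 TPM in sgKCNQ3 and 4187 to 4279 TPM in NC cells. Of the other cell types' markers, APOA2 (hepatocyte) and DCN (fibroblast) were absent from the deposited genes and are counted as below that level. With these included, 2 of 8 hepatocyte, 1 of 6 fibroblast, 1 of 6 leukocyte and 0 of 4 endothelial markers reached that level in every library. Their summed levels ran from 78.1 to 87.6, 2.61 to 2.80, 80.4 to 88.3 and 0.130 to 0.430 TPM in sgKCNQ3 cells, and from 74.5 to 76.8, 2.17 to 2.83, 94.5 to 100.9 and 0.0900 to 0.180 TPM in NC cells. The hepatocyte sum was mostly SERPINA1 (80.6 TPM in sgKCNQ3 and 73.7 TPM in NC cells) and the leukocyte sum mostly CD68 (84.2 TPM in sgKCNQ3 and 95.9 TPM in NC cells). The defining genes were near 0, with ALB at 0.0333 TPM in sgKCNQ3 and 0.0800 TPM in NC cells and PTPRC at 0.0200 TPM in sgKCNQ3 and 0.0133 TPM in NC cells. The part of these marker differences in the splicing genes' values was not tested.

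Library sgKCNQ3 replicate 2 held the highest value of its group for 42 of the 66 tested members. Its median deviation from the group mean was 0.041 on the log2 scale over members and 0.0003 over all tested genes. Scaling holds the latter near 0 in every library. Library sgKCNQ3 replicate 3 held the lowest value of its group for 40. The same shares over all tested genes were not counted. Over the whole table, sgKCNQ3 replicate 2 also differed more from replicates 1 and 3 (chi-square per degree of freedom 3.09 and 4.045) than these did from each other (1.70). NC replicate 2 likewise differed more from NC replicates 1 and 3 (2.857 and 2.379) than these did from each other (1.616). Such values give no direction, so whether sgKCNQ3 replicate 2 stood higher for splicing genes in particular was not tested. Counts are also given below without sgKCNQ3 replicate 2 and without sgKCNQ3 replicate 3.

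To show what lies upstream of 3 SR genes that passed the test, the 250 bases before the RefSeq start of each (build GRCh38.p14) are printed 5' to 3' on the gene's strand. SRSF7 had the largest change among called genes of the set, SRSF3 had the highest CPM of the SR genes and fell, and SRSF11 had the largest rise among SR genes. Capitals mark matches on either strand to CCAAT or TATAAA.
SRSF7: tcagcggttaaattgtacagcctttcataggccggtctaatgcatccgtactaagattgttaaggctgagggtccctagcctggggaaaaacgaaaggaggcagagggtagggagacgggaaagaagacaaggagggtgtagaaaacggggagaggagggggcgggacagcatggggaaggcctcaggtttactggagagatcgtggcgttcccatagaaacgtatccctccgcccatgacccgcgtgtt
SRSF3: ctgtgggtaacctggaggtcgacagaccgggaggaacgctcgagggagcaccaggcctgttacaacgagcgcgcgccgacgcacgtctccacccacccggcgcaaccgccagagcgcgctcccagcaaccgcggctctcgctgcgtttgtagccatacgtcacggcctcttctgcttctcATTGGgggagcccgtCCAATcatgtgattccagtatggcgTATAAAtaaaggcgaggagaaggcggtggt
SRSF11: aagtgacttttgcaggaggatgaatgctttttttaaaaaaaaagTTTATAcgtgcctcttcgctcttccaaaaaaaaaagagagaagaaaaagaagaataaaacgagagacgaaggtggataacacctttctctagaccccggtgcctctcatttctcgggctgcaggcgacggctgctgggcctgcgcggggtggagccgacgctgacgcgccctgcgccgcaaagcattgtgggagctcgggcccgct

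These stretches lie at chr2:38751495-38751744 on the minus strand for SRSF7, chr6:36594112-36594361 on the plus strand for SRSF3 and chr1:70221130-70221379 on the plus strand for SRSF11. The SRSF3 stretch holds 2 CCAAT letters in opposite orientations and a TATAAA run close to the start, the SRSF11 stretch holds a TATAAA run on the opposite strand far from the start, and the SRSF7 stretch holds none of the letters searched. RefSeq windows of 250 bases before to 50 after the start were given for 63 of the 69 members and for 10354 tested genes. The ETS core CCGGAA, on either strand, was in 36.5% of the members' windows and in 30.2% of the tested genes' windows. CCAAT was in 41.3% and 36.6%, the E-box CACGTG in 14.3% and 10.2%, and TATAAA in 9.52% and 5.30% of these windows. The CRE letters TGACGTCA were in 1.59% and 3.26%. Among called members with a window, CCGGAA was in 0 of 5 that rose and 2 of 8 that fell, and CCAAT in 3 of 5 and 3 of 8.

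The comparison asked whether the splicing genes differ between sgKCNQ3 and NC cells, class by class. Of the 69 members, SRSF12, HNRNPCL1 and HNRNPCL4 were too low to be tested, and 66 entered the fit. With edgeR's quasi-likelihood test and Benjamini-Hochberg adjustment over 12565 genes, 6 members rose and 8 fell at an adjusted p of 0.05, which is 21.2% of those tested. Over all tested genes 29.1% were called, 14% higher and 15.1% lower, so with this fit the share among splicing genes was below the background. The median log2 fold change was -0.02 over members and -0.01 over all tested genes, and the median size of the change was 0.08 and 0.12. Members were measured more precisely, with a median SE of 0.0452 against 0.0658 over all tested genes. The 3 libraries of each group did not overlap for 22 of 66 members, or 33.3%, against 41.7% of all tested genes.

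In this fit the changes were small as well as few. The 14 called members changed by 0.13 to 0.35 on the log2 scale, and 59 of the 66 differed by less than 0.2. Of the 52 members not called, 37 had a 95% interval that lay within 0.2 on either side of 0, and 45 within 0.3. Differences beyond these limits are outside the intervals of those genes. A p that misses the threshold does not show that smaller differences are absent, and 9 of the called changes were of 0.2 or less. In 13 of the 14 called members the groups did not overlap, SRSF3 being the exception. A call makes such separation likely, so this is no separate support, and the share over all called genes was not counted.

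**Figure D1:**
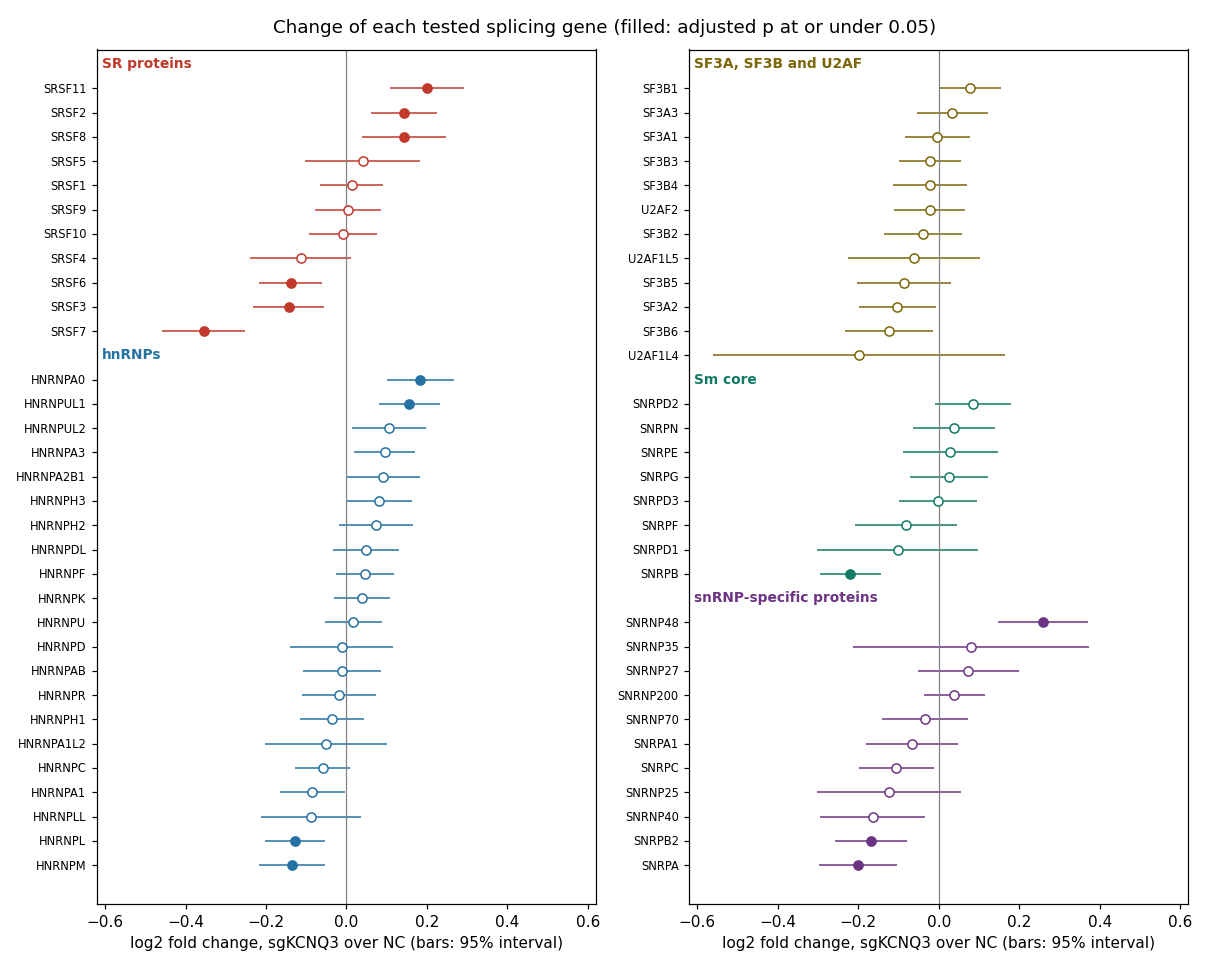
Log2 fold change of sgKCNQ3 over NC (horizontal axis) for 63 of the 66 tested splicing genes, by class, from 3 libraries a group. Points are the edgeR estimate, bars its 95% interval, and filled points are the 14 called genes. U2AF1, HNRNPCL2 and HNRNPCL3, whose intervals run past the axis, are left out. SRSF7 at -0.35 stands lowest and SNRNP48 at 0.26 highest, and no gene of SF3A, SF3B and U2AF is filled.

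Of 11 SR genes tested, 3 rose and 3 fell, which is 54.5% against 29.1% of all tested genes, with a median change of 0.004 (-0.03 with the length trend described below removed). SRSF7, which also acts in mRNA export, had 145, 163 and 135 CPM (counts scaled to a fixed library total, with TMM factors) in sgKCNQ3 cells, against 186, 190 and 191 CPM in NC cells. Each sgKCNQ3 library lay below each NC library, and replicate 2 lay nearest to them. The log2 fold change of SRSF7 was -0.35 (SE 0.0496, adjusted p = 1.35e-05), and -0.42 without sgKCNQ3 replicate 2.

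SRSF3, the smallest SR protein and the most abundant of the class by CPM, had 394, 441 and 394 CPM in sgKCNQ3 cells, against 473, 440 and 444 CPM in NC cells. Its sgKCNQ3 replicate 2 lay within the NC range, so the groups overlapped by that library. The change was -0.14 (SE 0.0428, adjusted p = 0.0135), or -0.19 (adjusted p = 5.52e-05) without that library. The SRSF3 call was lost without sgKCNQ3 replicate 1 (adjusted p = 0.105), without sgKCNQ3 replicate 3 (0.0707) and without NC replicate 1 (0.0993). SRSF6 had 198, 199 and 195 CPM in sgKCNQ3 cells and 220, 209.8 and 221 CPM in NC cells, a narrow group below a wider one. It fell by 0.14 (adjusted p = 0.00744), a call that was lost without NC replicate 3 (adjusted p = 0.0571).

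SRSF11, an SR-related protein, had 112, 116 and 114 CPM in sgKCNQ3 cells, against 98.3, 94.5 and 105 CPM in NC cells. The groups did not overlap and the gene rose by 0.20 (SE 0.0448, adjusted p = 0.00144). SRSF2, an activator that binds exonic enhancers, had 177, 189.6 and 185 CPM in sgKCNQ3 and 161, 169.5 and 169 CPM in NC cells, with no overlap. It rose by 0.14 (adjusted p = 0.00887), which was lost without NC replicate 1 (adjusted p = 0.0557). SRSF8, a close relative of SRSF2, had 61.8, 58.2 and 57.9 CPM in sgKCNQ3 and 53.0, 53.3 and 54.9 CPM in NC cells. It rose by 0.14 (adjusted p = 0.0363), and DESeq2 did not call it (adjusted p = 0.111), nor did 4 of the 6 fits that left out 1 library. The 5 SR genes not called, SRSF1, SRSF4, SRSF5, SRSF9 and SRSF10, had estimates between -0.11 and 0.04.

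**Figure D2:**
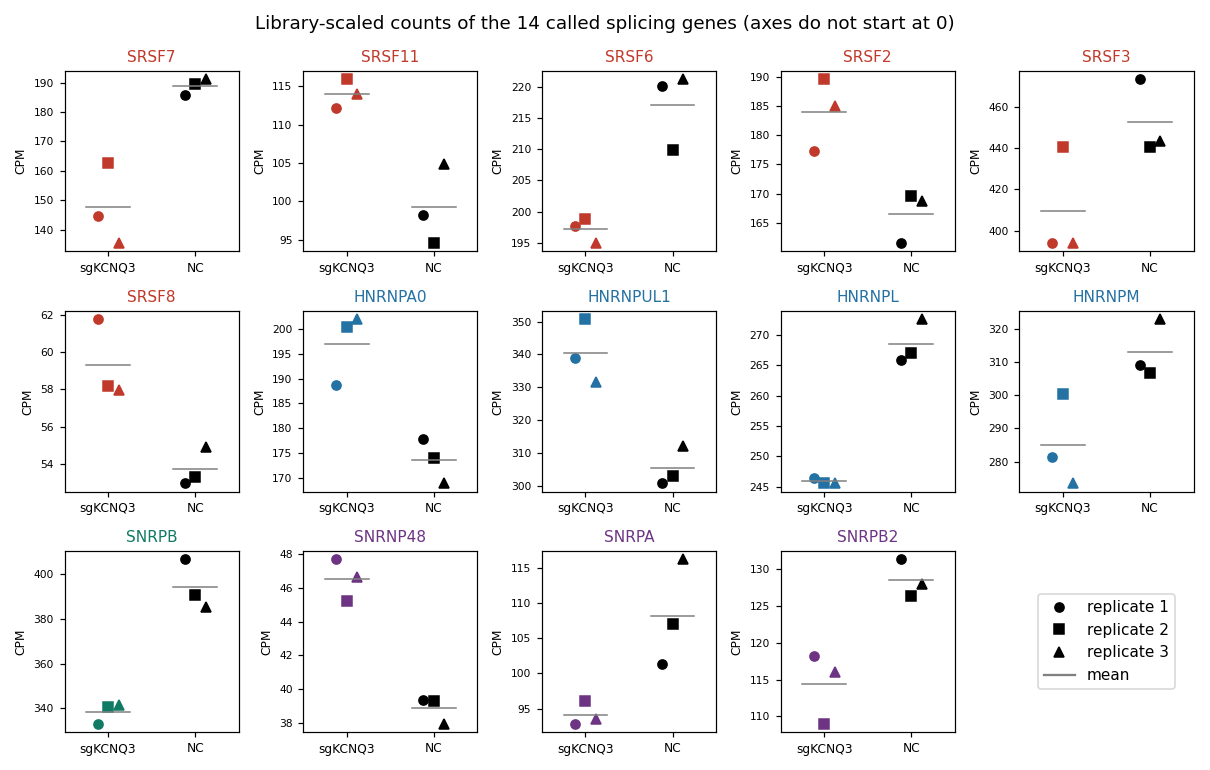
CPM (vertical axes, which do not start at 0) of the 14 called splicing genes in the 3 sgKCNQ3 libraries (coloured by class, left) and the 3 NC libraries (black, right), with the replicate number as the marker shape and the mean as a grey line. SRSF7 has its 3 sgKCNQ3 libraries at 135 to 163 CPM below the NC libraries at 186 to 191 CPM, and SRSF3 has its sgKCNQ3 replicate 2 among the NC libraries.

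Of 23 hnRNP genes tested, 2 rose and 2 fell, which is 17.4% against 29.1% of all tested genes. Their median change was 0.02 (-0.01 with limma-voom). HNRNPUL1, an RNA- and DNA-binding relative of HNRNPU, had 339, 351 and 332 CPM in sgKCNQ3 cells, against 301, 303 and 312 CPM in NC cells. HNRNPA0, which binds AU-rich elements, had 189, 200.5 and 202 CPM in sgKCNQ3 and 178, 174 and 169 CPM in NC cells. In both genes all sgKCNQ3 libraries lay above all NC libraries, and the rises were 0.16 (SE 0.0370, adjusted p = 0.00236) for HNRNPUL1 and 0.18 (SE 0.0402, adjusted p = 0.00121) for HNRNPA0.

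HNRNPL, which binds CA-rich repeats, had 246, 246 and 246 CPM in sgKCNQ3 cells, against 266, 267 and 273 CPM in NC cells. HNRNPM, a regulator of alternative exons, had 281, 300.3 and 273 CPM in sgKCNQ3 cells, against 309, 307 and 323 CPM in NC cells. The groups did not overlap for either gene, by a narrow margin for HNRNPM. HNRNPL fell by 0.13 (SE 0.0361, adjusted p = 0.00937) and HNRNPM by 0.13 (SE 0.0398, adjusted p = 0.0126). Both calls were lost without NC replicate 3 (adjusted p = 0.0660 for HNRNPL and 0.0994 for HNRNPM), and that of HNRNPM also without sgKCNQ3 replicate 1 (0.0703) or replicate 3 (0.0885).

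The hnRNP genes with the highest CPM, HNRNPA1 and HNRNPC, were not called with TMM scaling. Both were called lower when trends over length and GC content were removed, with estimates of -0.12 for each. HNRNPA1, a widely studied splicing repressor, averaged 1326 ± 67.6 CPM in sgKCNQ3 and 1406 ± 58.9 CPM in NC cells (SD, n = 3 each), with overlapping groups, a change of -0.09 and an adjusted p of 0.107. HNRNPC, which binds uridine tracts, averaged 1108 ± 7.78 CPM in sgKCNQ3 and 1154 ± 5.28 CPM in NC cells (SD, n = 3 each). Its groups did not overlap, but the change of -0.06 was not called (adjusted p = 0.189). HNRNPA3 had a change of 0.10 just outside the threshold (adjusted p = 0.0526), and the groups did not overlap. The remaining uncalled hnRNP genes lay from -0.09 for HNRNPLL to 0.11 for HNRNPUL2, apart from HNRNPCL2 and HNRNPCL3, copies of HNRNPC that averaged 0.756 and 0.880 CPM in sgKCNQ3 and 0.724 and 1.07 CPM in NC cells.

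No gene of SF3A, SF3B and U2AF was called, out of 13 tested, against 29.1% of all tested genes. The median change was -0.04 (0.05 on the TPM scale). SF3B1, the subunit that contacts the branch point and the target of recurrent mutations in cancer, had 253, 259 and 252 CPM in sgKCNQ3 cells, against 247, 237 and 240 CPM in NC cells. Its groups did not overlap, but the change was 0.08 with an interval of 0.002 to 0.15 (adjusted p = 0.116). SF3B2, the most abundant of the class by CPM, averaged 325 ± 22.1 CPM in sgKCNQ3 and 334 ± 19.7 CPM in NC cells (SD, n = 3 each), with overlapping groups (adjusted p = 0.565). SF3A2 and SF3B6 were lower in every sgKCNQ3 library than in every NC library, with estimates of -0.10 and -0.12 that were not called (adjusted p = 0.104 and 0.0850). U2AF2, the large subunit of U2AF, had an estimate of -0.02.

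The small subunit U2AF1 had the widest estimate of all members, -1.95 with a 95% interval of -4.43 to 0.52 (adjusted p = 0.202), and its record shares nearly all its sequence with a second one. U2AF1 had 9.84, 7.80 and 12.5 estimated counts in sgKCNQ3 libraries and 42.9, 8.32 and 68.3 in NC libraries, while the U2AF1L5 record had 3141, 3669 and 2955 in sgKCNQ3 and 3251, 3399 and 3387 in NC libraries. The longest GENCODE 29 transcripts of both genes, which lie on chromosome 21, are 1675 bases and differ at 2 positions, counted from 1 at the transcript's 5' end, C144T and G463C with the U2AF1 base first. The 29 bases around each difference are shown because the transcripts are otherwise identical. Capitals mark the difference, first at position 144 and then at position 463.
U2AF1: tcctaaggtgggttCggtcagtcccctaa
U2AF1L5: tcctaaggtgggttTggtcagtcccctaa
U2AF1: ctcaccacaccggtGttttcaagagagaa
U2AF1L5: ctcaccacaccggtCttttcaagagagaa

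Summed over both records, the counts were 3151, 3677 and 2968 in sgKCNQ3 libraries and 3294, 3407 and 3455 in NC libraries. That is 205 ± 24.5 CPM in sgKCNQ3 and 216 ± 3.83 CPM in NC cells (SD, n = 3 each), a log2 ratio of -0.07, with the sgKCNQ3 libraries on both sides of the NC libraries. The U2AF1 record took 0.212% to 0.422% of the sum in sgKCNQ3 and 0.244% to 1.98% in NC libraries. The estimate of -1.95 thus rests on the U2AF1 counts of NC replicates 1 and 3, and the authors' division of reads between the records was not tested.

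**Figure D3:**
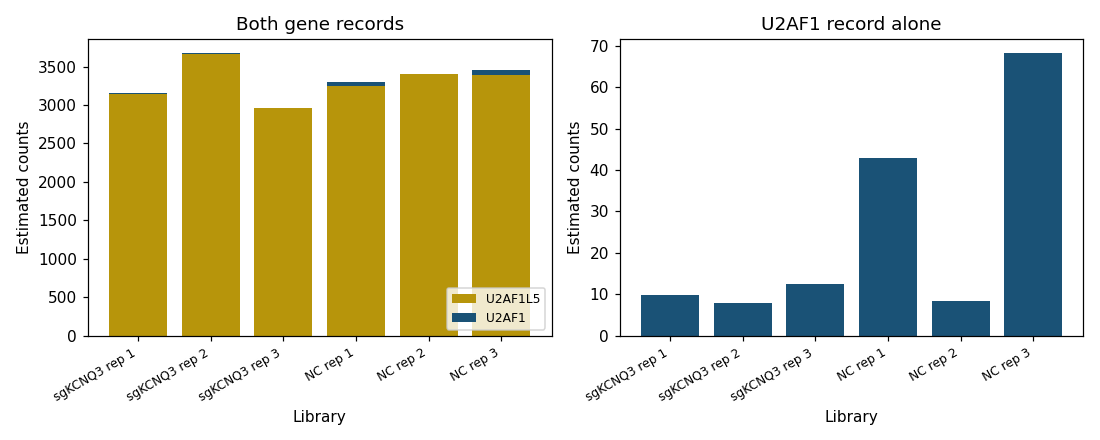
Estimated counts (vertical axes) in the 3 sgKCNQ3 and 3 NC libraries. Left, stacked bars of the U2AF1L5 and U2AF1 records, which reach 2968 to 3677 in sgKCNQ3 and 3294 to 3455 in NC libraries. Right, the U2AF1 record alone, where NC replicates 1 and 3 stand at 42.9 and 68.3 and the other libraries at 7.80 to 12.5.

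Other members also share sequence with copies. Fractional counts, which can arise when reads are divided between features, occurred in 12 members in at least 1 library and in 10 members in all 6, including HNRNPA1, HNRNPA1L2, HNRNPH2 and SNRPN. HNRNPA1L2 matched HNRNPA1 at 98.5% of 1372 aligned bases, and HNRNPA1 kept 98.2% to 98.4% of their summed counts in sgKCNQ3 and 98.1% to 98.5% in NC libraries. None of the 14 called members had a fractional count.

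In the Sm core, 1 of 8 genes was called and it fell (12.5%, against 29.1% of all tested genes). The median change was 0.01. SNRPB, which encodes the ring protein SmB, had 333, 341 and 341 CPM in sgKCNQ3 cells, against 406, 390 and 385 CPM in NC cells. The groups were widely apart, and the gene fell by 0.22 (SE 0.0364, adjusted p = 6.68e-05), a call kept in all 18 alternative fits. Its paralogue SNRPN had an estimate of 0.04 (adjusted p = 0.602), with fractional counts as above. The other 6 ring genes had estimates from -0.10 for SNRPD1 to 0.08 for SNRPD2, and none was called.

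Among 11 genes for proteins of single snRNPs, 1 rose and 2 fell (27.3%, against 29.1% of all tested genes). Their median change was -0.07 (0.007 on the TPM scale). SNRNP48, a protein of the minor spliceosome, had 47.7, 45.2 and 46.6 CPM in sgKCNQ3 cells, against 39.4, 39.3 and 37.97 CPM in NC cells. All sgKCNQ3 libraries lay above all NC libraries and the rise of 0.26 (SE 0.0548, adjusted p = 0.000899) was kept in all 18 alternative fits. The other minor-spliceosome members, SNRNP25 and SNRNP35, had overlapping groups and estimates of -0.12 and 0.08 (adjusted p = 0.303 and 0.703).

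SNRPA, an RNA-binding protein of the U1 snRNP, had 92.9, 96.0 and 93.6 CPM in sgKCNQ3 cells, against 101, 107 and 116 CPM in NC cells. SNRPB2, its close relative in the U2 snRNP, had 118, 109 and 116 CPM in sgKCNQ3 cells, against 131, 126 and 128 CPM in NC cells. Neither gene's groups overlapped, and SNRPA fell by 0.20 (SE 0.0476, adjusted p = 0.00244) and SNRPB2 by 0.17 (SE 0.0430, adjusted p = 0.00442). The other U1 proteins, SNRPC and SNRNP70, had estimates of -0.11 and -0.03 (adjusted p = 0.0842 and 0.657). SNRNP200, the helicase of the U5 snRNP and the most abundant of the class by CPM, averaged 376 ± 5.84 CPM in sgKCNQ3 and 366 ± 11.8 CPM in NC cells (SD, n = 3 each), with overlapping groups (adjusted p = 0.457). SNRNP40, also of U5, lay just outside the threshold at -0.16 (adjusted p = 0.0525).

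The classes differ in transcript length, and so does the fold change in this comparison. The length implied by the deposited counts and FPKM had a median of 3371 bases in SR genes, 2324 in hnRNPs, 1327 in SF3A, SF3B and U2AF, 1133 in proteins of single snRNPs and 987 in the Sm core, against 2878 over all tested genes. Across genes, which are not independent replicates and share these libraries, log2 fold change and length had a Spearman correlation of 0.366 over the 66 members and 0.341 over all tested genes. Within classes it was 0.780 over 13 genes of SF3A, SF3B and U2AF, 0.436 over 23 hnRNPs, 0.309 over 11 proteins of single snRNPs, 0.009 over 11 SR genes and -0.214 over 8 Sm genes. Longer genes thus tended to be higher in sgKCNQ3, over the members together as over the whole table, but not within the SR and Sm classes.

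When the trend over length was removed from each library, 7 members rose and 7 fell, 21.2% of 66, against 23.7% of all tested genes, 9.58% higher and 14.1% lower. The correlation with length was then -0.112 over members and -0.010 over all tested genes. The class medians moved to -0.03 for SR genes, 0.005 for hnRNPs, -0.03 for SF3A, SF3B and U2AF, 0.04 for the Sm core and -0.03 for proteins of single snRNPs, and to -0.001 for all members. All of these lay within 0.04 of 0.

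Of the 14 calls, 9 were kept with the length trend removed, namely SRSF7 (-0.28), SRSF3, SRSF6, SRSF2, SRSF11, HNRNPUL1, SNRPB (-0.14), SNRPB2 and SNRNP48 (0.22). The 5 lost were SRSF8, HNRNPM, HNRNPL, HNRNPA0 and SNRPA, all with the same sign as before. SRSF8 had an estimate of 0.14 before and 0.10 after removal, HNRNPM -0.13 before and -0.10 after, and HNRNPL -0.13 before and -0.08 after. HNRNPA0, at 8421 bases among the longest members, had an estimate of 0.18 before and 0.04 after removal (adjusted p = 0.465 after). SNRPA, at 984 bases, had -0.20 before and -0.12 after (adjusted p = 0.0595 after). In their place HNRNPU (-0.10), SF3B3 (-0.17), HNRNPH3 (0.12), HNRNPA2B1 (0.13) and SNRPD2 (0.13) passed the test. SF3B3, the longest member at 9399 bases, and HNRNPU, a nuclear scaffold protein, are long genes that moved down, and the other 3 are shorter than the median gene and moved up. With trends over both GENCODE 29 length and GC content removed, 5 members rose and 11 fell, against 26.5% of all tested genes called. Of the gained calls, HNRNPH3 (0.07, adjusted p = 0.106) and HNRNPA2B1 (0.05, adjusted p = 0.474) did not pass in that edgeR fit.

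The direction of the calls also moved with the scaling and with 1 library. Scaled by library size alone, 12 members rose and 5 fell, and on log2(TPM + 1) with limma-trend 17 rose and 2 fell, where the median of all tested genes moved to 0.03 and 0.06. Those fits called 28.7% and 25.5% of all tested genes, so the members' share on TPM was close to the background. Of the 17, 11 were hnRNPs, and none of the hnRNPs fell in that fit. The median over members was 0.06 there, as over all tested genes, whose shares higher and lower were not counted. On TPM the calls of SRSF3 (-0.05), SRSF6 (-0.05), HNRNPL (-0.05), HNRNPM (-0.05), SNRPA (-0.12, adjusted p = 0.119) and SNRPB2 (-0.08, adjusted p = 0.241) were lost. With library size alone those of SRSF3 (adjusted p = 0.0508), HNRNPL (0.0607) and HNRNPM (0.0576) were lost. The summed TPM of the hnRNP class was 5205 ± 96.5 in sgKCNQ3 and 4890 ± 14.5 in NC cells (SD, n = 3 each). That of SR genes was 1424 ± 48.5 in sgKCNQ3 and 1385 ± 8.74 in NC cells, and that of the Sm core 2771 ± 62.1 in sgKCNQ3 and 2794 ± 42.9 in NC cells. As a share of counts, all members together took 1.46% to 1.53% in sgKCNQ3 and 1.45% to 1.47% in NC libraries.

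Without sgKCNQ3 replicate 2, 6 of 67 members rose and 15 fell, a share above the 27.4% of all tested genes called. All 14 calls were kept, and the 7 added, HNRNPA1 (-0.12), SF3A2, U2AF1L5, SNRPD1, SNRNP25, SNRNP70 and SNRPC, were all lower in sgKCNQ3. Replicate 2 was the highest of its group for most members, so its removal lowers their sgKCNQ3 level. The added falls are thus no separate support. Leaving out sgKCNQ3 replicate 3, the lowest for 40 members, 8 of 68 members rose and 6 fell, against 25.2% of all tested genes called. That fit added HNRNPA2B1 and HNRNPUL2 as higher and lost the calls of SRSF3 and HNRNPM. Without NC replicate 3, 5 rose and 5 fell, against 21.2% of all tested genes called. SRSF7, SRSF11, HNRNPUL1, SNRPB and SNRNP48 were called in the same direction in all 18 alternative fits.

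Counts for related gene lists stand against the same shares of all tested genes, 29.1% called with TMM scaling and 23.7% with the length trend removed. Of 42 other spliceosome components, 3 rose and 6 fell (21.4%), with a median change of -0.03. The lower genes with the smallest p were PLRG1 of the PRP19-associated complex (-0.21, adjusted p = 0.000184), PHF5A, a small SF3B subunit outside the symbol rule (-0.22), and USP39, a tri-snRNP protein (-0.18). The higher ones were PRPF8, the core of U5 (0.09), DHX15, a helicase of spliceosome disassembly (0.12), and CDC40, a second-step factor (0.16). With the length trend removed 1 rose and 4 fell (11.9%). DHX15 kept its call, CDC40 lost it at 0.14 (adjusted p = 0.0843), and the estimate of PRPF8 turned to -0.03 (adjusted p = 0.555). PLRG1 and USP39 kept their calls, and PHF5A lost its call at -0.13 (adjusted p = 0.0629).

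Of 13 kinases, phosphatases and transporters of SR proteins, 4 rose and 2 fell (46.2%), with a median of 0.01. PRPF4B (0.20), SRPK2 (0.14) and TNPO1 (0.15) rose; the first 2 are kinases and TNPO1 imports hnRNPs into the nucleus. CLK1, a nuclear kinase of SR proteins, averaged 38.9 ± 0.514 CPM in sgKCNQ3 and 45.9 ± 2.66 CPM in NC cells (SD, n = 3 each) and fell by 0.24 (adjusted p = 0.00273), and PPP1CA, a phosphatase catalytic subunit, fell by 0.15. With the length trend removed 1 rose and 2 fell (23.1%). The calls of PRPF4B (0.12), SRPK2 (0.12), TNPO1 (0.01) and PPP1CA (-0.08, adjusted p = 0.147) were then lost. The gene that rose was PPP1CC (0.14), another phosphatase subunit. CLK1 (-0.18) kept its call, and DYRK1A (-0.15, adjusted p = 0.0352) was called lower in this fit only. PPP1CC and DYRK1A were named after their values were seen.

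Of 44 SR-related proteins and other splicing regulators, 11 rose and 6 fell (38.6%), with a median of 0.03. RALY, a relative of HNRNPC, averaged 212 ± 9.62 CPM in sgKCNQ3 and 255 ± 1.63 CPM in NC cells (SD, n = 3 each) and fell by 0.27 (adjusted p = 1.42e-05), and TRA2A (-0.19) and RBM10 (-0.21) also fell. SRRM1 (0.18) and SRRM2 (0.14), SR-related matrix proteins, and TIA1 (0.21), which promotes the use of weak 5' splice sites, rose. With the length trend removed 4 rose and 5 fell (20.5%), and SRRM2 was at 0.002 (adjusted p = 0.980), while SRRM1 and TIA1 kept their calls.

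Of 17 snRNP assembly factors, 0 rose and 3 fell (17.6%), with a median of -0.08. Those that fell were PRMT5, which methylates Sm proteins (-0.10), TGS1, which modifies the snRNA cap (-0.18), and SMN1 (-0.16). SMN1 has a near-identical copy, SMN2 (-0.14, not called), and the division of reads between them was not tested. With the length trend removed only TGS1 kept its call (5.88%). Of 16 factors of nonsense-mediated decay, 1 rose and 4 fell (31.2%), with a median of -0.09. SMG9 averaged 54.2 ± 0.835 CPM in sgKCNQ3 and 67.2 ± 0.405 CPM in NC cells (SD, n = 3 each) and fell by 0.31 (adjusted p = 2.83e-05), RNPS1 of the exon junction complex by 0.17 and SMG5 by 0.18. SMG1, the kinase of the pathway, rose by 0.12. With the length trend removed 0 rose and 7 fell (43.8%), against 14.1% of all tested genes lower, and SMG1 turned to -0.04 (adjusted p = 0.414).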

How the data were processed

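Gene-level values of 6 RBE libraries (3 sgKCNQ3, 3 NC; groups and replicate numbers from the titles) were used. The authors deposited an estimated count per gene (expected count) with no normalization. The authors' TPM and FPKM values stand beside it, per the file headers. Between 5.52% and 6.33% of the counts in a library were not whole. The submitters' processing notes name GRCh38.p13 as the build. Aligner, counter and strand handling: not given in the sources used here. Another 14 columns of values (normalized values and group means) were not used.

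Counts were rounded and fitted with edgeR 4.0.16 in R 4.3.3: filterByExpr (minimum count 10), TMM, robust quasi-likelihood F tests, Benjamini-Hochberg adjustment over 12565 genes, threshold 0.05. An SE is the absolute log2 fold change over the root of its F statistic, and the biological coefficient of variation came to 3.62%. Length was taken from deposited counts and FPKM, and each library's length trend (natural spline, 5 degrees of freedom) was removed as an offset. The test was checked on simulated counts. Since separate cultures are not stated, p-values reflect spread between libraries that may be technical.

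Members and lists were chosen with earlier results of these data known. Named genes are KCNQ3, the most abundant member of each class, called members (up to 5 per class and direction) and up to 3 called genes per list and direction; other members are given by estimate. Alternatives were DESeq2 1.42.0, limma 3.58.1 (voom, and trend on log2(TPM + 1)), other scalings and filters, a replicate block and leaving out each library. Promoter windows of 6 members were not used here.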

Additional observations from a re-analysis of the deposited data

How the results depend on the processing

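Of the 18 alternatives, none changed the count of members higher by over 1.5 times except scaling by library size alone (12) and limma-trend on log2(TPM + 1) (17), and the count lower except these (5 and 2) and leaving out 1 library (range 5 to 15). The median of all members was 0.0631 on TPM, and by class on TPM it was 0.0781 for SR genes, 0.108 for hnRNPs, 0.0490 for SF3A, SF3B and U2AF, 0.0742 for the Sm core and 0.00746 for proteins of single snRNPs. With library size alone it was 0.0532 for hnRNPs and -0.00360 for SF3A, SF3B and U2AF, and with limma-voom -0.0131 for hnRNPs. Leaving out 1 library gave -0.0174 to 0.0428 for hnRNPs, -0.0847 to -0.00329 for SF3A, SF3B and U2AF and -0.121 to -0.0231 for proteins of single snRNPs. Among the named genes, signs turned in 3 that were not called: HNRNPA1 (0.00436 on TPM), SF3B2 (0.0490 on TPM, and -0.0876 to 0.0104 without 1 library) and SNRNP200 (-0.0844 with the length trend removed, -0.0442 with GC too, -0.0838 with the block and length). The cause was not tested. Same-numbered libraries did not deviate together (correlations 0.0136, -0.0977 and 0.00776), so the numbers are not taken as pairs; with the replicate number as a block 5 members rose and 9 fell, and SRSF8 was not called (adjusted p = 0.0592), and with the length trend removed as well 4 rose and 7 fell. Depth limits low members such as HNRNPCL2 and SNRNP35, whose intervals are wide.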
